A study of Mus musculus with 2 samples.

Results

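T cells of the postischemic mouse kidney that carried no transcript of the gamma-delta receptor constant genes made up 829 of the 17701 barcodes kept from 2 single-cell libraries. They were chosen by counts of unique molecular identifiers (UMIs, each standing for 1 captured molecule). A barcode was kept with 500 to 100000 UMIs, at least 200 genes, at most 50% mitochondrial UMIs and a complexity (log10 of its genes over log10 of its UMIs) of 0.8 or more. It was taken as a T cell when *Cd3d*, *Cd3e* and *Cd3g* together had at least 2 UMIs, *Trdc*, Tcrg-C1 and *Cd79a* had none, C1qa, C1qb and C1qc together had under 10 UMIs per 10000, and *Mki67* and *Top2a* together had under 4. The Cre- library gave 398 of these cells among 8468 kept barcodes, and the library labelled PHDTiEC gave 431 among 9233. The genes of this rule fixed the membership, so their levels are given as a description.

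The study asked how the loss of the oxygen-sensing prolyl hydroxylases PHD1, PHD2 and PHD3 from endothelium alters the kidney after ischemia-reperfusion injury. Each library came from 1 mouse, a Cre- animal and a littermate that carried *Cdh5*-CreERT2 and was Phd1f/f, Phd2f/f and Phd3f/f, here called PHDTiEC, in which the *Cdh5* promoter places tamoxifen-inducible Cre in endothelial cells and not in T cells. Mice of this study were 8 to 10 weeks old, had 25 minutes of unilateral renal ischemia and received 4 doses of 3 mg tamoxifen, and the injured kidney was dissociated on day 14. The labels do not give the other alleles of the Cre- mouse. Each genotype being 1 mouse and 1 library, the differences below are unreplicated and carry neither a p-value nor a standard error. All intervals cover counting error only, at 95%, and genotype, mouse, dissociation and library cannot be told apart.

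Conventional T cells recognize antigen through a receptor of an alpha and a beta chain that signals through the CD3 proteins. Cells with the co-receptor CD4 help other immune cells by cytokines and by CD40 ligand, while cells with CD8 kill target cells by granzymes and perforin. After kidney ischemia, T cells enter and persist in the tissue, some as regulatory cells that restrain inflammation and support repair, others as producers of interferon gamma or interleukin 17.

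The marker genes fitted the label. All 14 T cell markers were detected in both libraries, among them *Cd3d*, *Cd3e* and *Cd3g*, which the rule itself used. *Trac*, which encodes the constant part of the alpha chain, had a UMI in 311 of 398 cells (78.1%) of the Cre- library and in 343 of 431 (79.6%) of the library labelled PHDTiEC. Of C1q-high macrophages, 0.385% and 0.493% had a *Trac* UMI, and those cells were deeper (median 7347 and 7854 UMIs, against 3335.5 and 3613 in T cells). These macrophages were chosen to hold no CD3 UMI, so barcodes mixed with T cells were largely left out beforehand. This choice can lower their share for any T cell gene, here and below. The T cell marker genes, the CD3 genes of the rule included, summed to 4516 and 4624 CPM (counts scaled to a common total of UMIs). *Icos*, *Ctla4* and *Cd40lg*, a costimulatory receptor, an inhibitory receptor and the CD40 ligand, were seen in 47.7% and 61.9%, 36.4% and 38.7%, and 31.7% and 33.9% of the T cells. Each was seen in under 0.4% of macrophages in either library.

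Cells close to the limits of the rule were few. Exactly 2 CD3 UMIs were carried by 23 and 20 members (median 2850 and 2415 UMIs), whereas barcodes with exactly 1, just outside, numbered 70 and 83 and were deep (median 11444.5 and 14430 UMIs). Barcodes left out for a single UMI of *Trdc* or Tcrg-C1 numbered 18 and 43. The C1q limit had 23 and 17 members between 5 and 10 per 10000 and 5 and 5 barcodes between 10 and 20 outside it. Up to 3 UMIs of *Mki67* and *Top2a* were carried by 14 and 18 members with at least 2, and 22 and 42 barcodes with 4 or more were left out as cycling.

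A small number of deep barcodes held a large part of the RNA. In the Cre- library, 48 members had over 3 times the median UMIs and contributed 51.1% of all members' UMIs, and in the library labelled PHDTiEC 43 members contributed 48.4%. Their T cell markers had a median of 11.8 and 8.50 UMIs per 10000, against 81.2 and 81.3 in the other 350 and 388 members, and markers of injured proximal tubule summed to 19891 and 11981 CPM in them, against 1536 and 772 CPM in the others. The profile of barcodes under 100 UMIs, scaled by tubular markers (*Spp1* and *Vcam1* left out), was read as 47.1% and 45.2% of all members' UMIs. In the members up to 3 times the median, it was read as 6.26% and 5.93%. Beyond this estimate, how far RNA of other cells contributes to the deep barcodes was not tested. Most values below are therefore also given for the 350 and 388 cells within 3 times the median, called the cells within the depth limit.

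**Figure D1:**
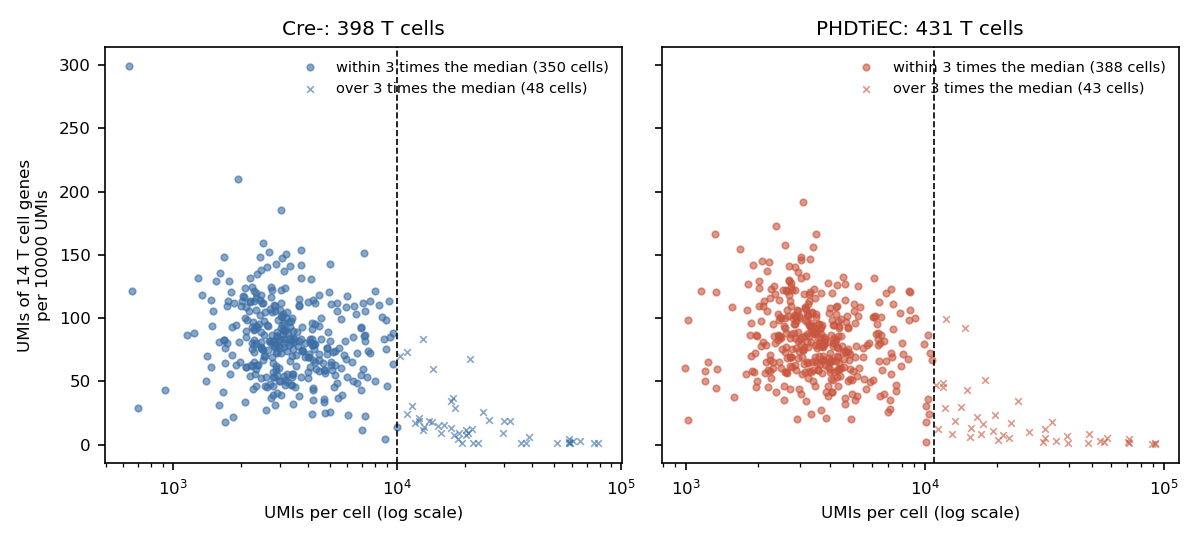
UMIs per cell (log axis) against the UMIs of 14 T cell genes per 10000 UMIs, 1 point per T cell, for the Cre- library (398 cells) and the library labelled PHDTiEC (431 cells). The 14 genes include *Cd3d*, *Cd3e* and *Cd3g*, which the rule used. The dashed line is 3 times the median depth. The 48 and 43 cells to its right, drawn as crosses, have a median of 11.8 and 8.50 UMIs of T cell genes per 10000, against 81.2 and 81.3 to its left.

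The libraries held 136004367 and 146758812 UMIs, 27 kept barcodes occurred in both and none of these was a T cell in both. Summed over all T cells, markers of other cell types stood at 1334 and 1546 CPM for proximal tubule, 10908 and 6193 CPM for injured proximal tubule, 692 and 368 CPM for the thick ascending limb and 517 and 664 CPM for the collecting duct. Immune and stromal markers stood at 1294 and 835 CPM for macrophages and monocytes, 84.4 and 597 CPM for neutrophils, 2100 and 991 CPM for dendritic cells, 27.0 and 168 CPM for endothelium, 109 and 601 CPM for fibroblasts and 795 and 40.5 CPM for erythroid cells. The highest Cre- cell held 3921 hemoglobin UMIs per 10000. B cell markers summed to 72.4 and 71.7 CPM and natural killer cell markers to 101 and 123 CPM. Members with 20 or more UMIs per 10000 from such lists (natural killer, erythroid and cycling genes aside) numbered 226 (56.8%) and 188 (43.6%). The median mitochondrial share of a T cell was 4.01% and 2.92%, and it differed in the same direction in macrophages (3.37% and 2.41%).

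The floxed genes could not serve as a check of the genotype. *Egln1*, *Egln2* and *Egln3*, which encode PHD2, PHD1 and PHD3, were counted at their 3′ ends, where a transcript of a recombined allele can still give UMIs. In endothelial barcodes, *Egln1* had 70.4 and 179 CPM, *Egln2* 36.3 and 37.9 CPM and *Egln3* 23.1 and 137 CPM. There *Egln1* (log2 ratio of CPM, library labelled PHDTiEC over Cre-, 1.35, interval 1.17 to 1.53) and *Egln3* (2.57, 2.28 to 2.87) were thus higher in the library labelled PHDTiEC. Both also belong to the list of HIF target genes used below, and the cause of the higher counts was not tested. In T cells, *Egln1* had 122 and 181 UMIs (log2 ratio of CPM, library labelled PHDTiEC over Cre-, 0.40, interval 0.06 to 0.74), *Egln2* 87 and 115 UMIs (0.23, -0.18 to 0.65) and *Egln3* 26 and 37 UMIs (0.34, -0.42 to 1.12), and the median of the 3 was 0.34 (0.25 over the 2 measured within the depth limit). The *Egln1* gene lies on chromosome 8 of GRCm38 from 124908587 to 124949324.

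The share of T cells differed between the libraries by less than the counting error. It was 4.70% (exact binomial interval 4.26 to 5.17%) of kept barcodes in the Cre- library and 4.67% (4.25 to 5.12%) in the library labelled PHDTiEC, a ratio of 0.993 (0.865 to 1.14). Among barcodes with the leukocyte gene *Ptprc*, the shares were 7.97% and 7.99%. With the members that carried 20 or more UMIs per 10000 of other cell types' markers left out, 172 and 243 cells remained, or 2.03% and 2.63%, and the ratio was 1.30 (1.06 to 1.58). Gamma-delta T cells chosen by the same limits were 1.76% and 2.45% of kept barcodes, a ratio of 1.39 (1.13 to 1.72), and natural killer cells 0.472% and 0.542%.

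About equal parts of the T cells carried a co-receptor transcript and carried none. *Cd4* without *Cd8a* was found in 84 cells (21.1%, 17.2 to 25.4%) of the Cre- library and 97 (22.5%, 18.6 to 26.7%) of the library labelled PHDTiEC, a ratio of 1.07 (0.788 to 1.45). *Cd8a* without *Cd4* was found in 123 (30.9%, 26.4 to 35.7%) and 108 cells (25.1%, 21.0 to 29.4%), a ratio of 0.811 (0.620 to 1.06) whose interval includes 1. With *Cd8b1* counted beside *Cd8a*, the shares were 37.9% and 35.0%. Both genes were found in 7 and 8 cells and neither in 184 (46.2%) and 218 (50.6%). Cells with neither include cells whose co-receptor transcript was not captured: with each cell thinned to 1000 UMIs, which left out 4 and 1 shallower cells, any *Cd4* UMI was expected in 7.60% and 8.11% of cells, against 22.9% and 24.4% as counted. Macrophages, which can carry *Cd4* at a low level, had a *Cd4* UMI in 2.12% and 3.03% of cells.

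*Foxp3*, the transcription factor that defines regulatory T cells, was seen in 25 cells (6.28%, 4.11 to 9.13%) of the Cre- library and 20 (4.64%, 2.86 to 7.08%) of the library labelled PHDTiEC, a ratio of 0.739 (0.389 to 1.39). The share of macrophages with a *Foxp3* UMI was 0.116% and 0.0352%. The *Foxp3* carriers often held other regulatory genes: *Ctla4* was found in 22 and 17 of them, *Ikzf2*, which encodes Helios, in 17 and 19, *Il2ra*, the high-affinity interleukin 2 receptor chain, in 9 and 11, and *Il1rl1*, the interleukin 33 receptor, in 7 and 7. Among the other T cells, *Ctla4* was seen in 33.0% and 36.5%, *Ikzf2* in 17.2% and 18.0%, *Il2ra* in 4.56% and 9.25% and *Il1rl1* in 2.41% and 0.973%. Those other cells were shallower than the carriers, at a median of 3232 and 3605 UMIs, which lowers such shares. A *Cd4* UMI was found in 16 of the 25 carriers of the Cre- library and in 5 of the 20 of the library labelled PHDTiEC, at median depths of 5892 and 4431.5 UMIs. *Areg*, which encodes the repair factor amphiregulin, was found in 8 and 9 of the carriers.

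**Figure D2:**
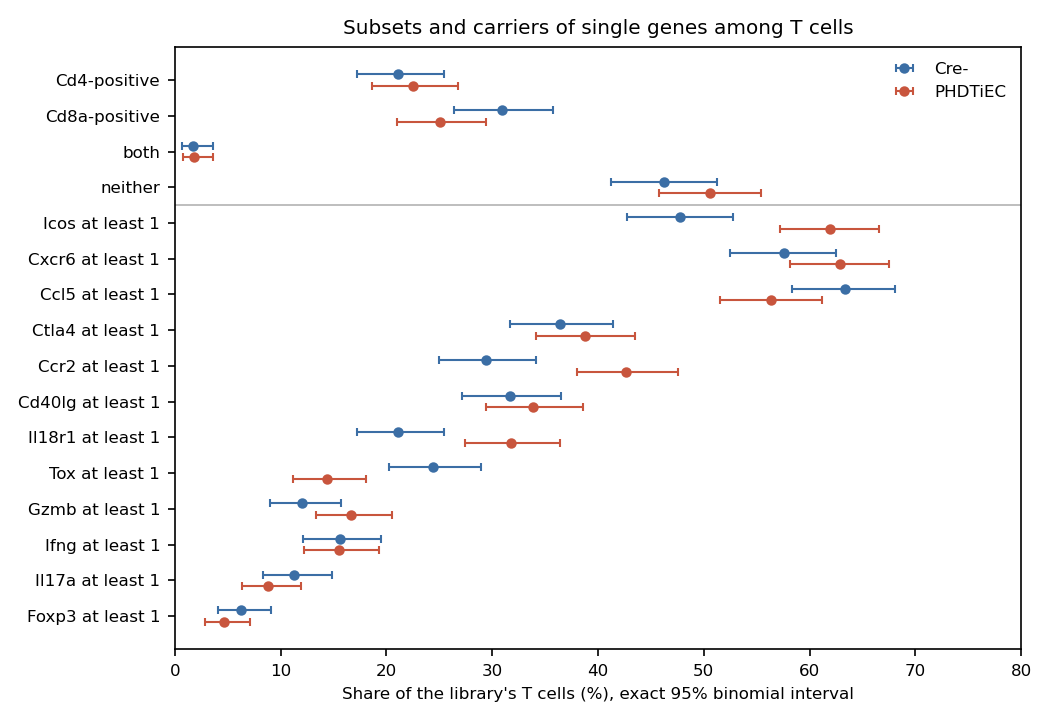
Share of each library's T cells (percent, x axis) by co-receptor gene (top 4 rows) and with at least 1 UMI of single genes, with exact 95% binomial intervals, for the Cre- library (398 cells) and the library labelled PHDTiEC (431 cells). *Icos*, *Ccr2* and *Il18r1* were seen in more of the cells of the library labelled PHDTiEC (61.9%, 42.7% and 31.8%, against 47.7%, 29.4% and 21.1%) and *Tox* in fewer (14.4%, against 24.4%).

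Differences between the libraries were measured gene by gene on summed UMIs, as the log2 ratio of CPM of the library labelled PHDTiEC over the Cre- library with the exact binomial interval of the split of the counts. Of 9085 genes that had 50 or more UMIs when the libraries were added, 186 (2.05%) were at least 2-fold higher and 97 (1.07%) at least 2-fold lower in the library labelled PHDTiEC, together 3.12%. The median log2 ratio of all these genes was 0.10. With TMM scaling the median was -0.01 and the split 154 higher and 123 lower. Within the depth limit, 5508 genes were measured, of which 55 (0.999%) were at least 2-fold higher and 34 (0.617%) lower, with a median of 0.09. The counts of list genes below are to be read against these shares. List medians within the depth limit cover only the genes with 50 or more UMIs there, which are fewer for many lists.

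The receptor and its signaling chain differed little. None of the 20 genes of T cell receptor and CD3 signalling were 2-fold apart, and their median log2 ratio was 0.07 (0.08 within the depth limit), close to that of all genes. *Cd3d* had 1449 and 1532 UMIs (-0.09), *Cd3e* 917 and 1148 (0.16) and *Cd3g* 1657 and 1786 (-0.06). *Trac* had 347 CPM in both libraries. *Zap70*, a kinase that the receptor activates, had a ratio of -0.16 (-0.47 to 0.15).

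Among the costimulatory receptors, *Icos* stood apart. *Icos* had 545 UMIs in 190 cells of the Cre- library and 965 UMIs in 267 cells of the library labelled PHDTiEC, or 210 and 331 CPM, a log2 ratio of 0.66 (0.50 to 0.81), and 0.59 (0.42 to 0.75) within the depth limit. At 1000 UMIs per cell, 22.9% and 33.6% of the cells were expected to show it, so the difference in share was also present at equal depth. Over 12 alternative ways of counting, the ratio lay between 0.55 and 0.67. *Slamf1*, an adhesion and costimulatory receptor of activated T cells, had 132 and 196 UMIs (0.40, 0.08 to 0.73) in 77 and 124 cells. The other members lay lower: *Cd28*, the classical costimulatory receptor, had a ratio of 0.17 (-0.01 to 0.35), *Cd27*, a receptor of naive and memory cells, of -0.29, and the median of the 9 genes was 0.01, within the depth limit also 0.01. The *Icos* gene lies on chromosome 1 of GRCm38 from 60977927 to 61000320.

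Inhibitory receptors and genes of exhaustion had a median below that of all genes. *Tox*, a transcription factor of chronically stimulated and exhausted T cells, had 150 UMIs in 97 cells of the Cre- library and 82 UMIs in 62 cells of the library labelled PHDTiEC, a log2 ratio of -1.04 (-1.45 to -0.64), and -1.18 (-1.63 to -0.74) within the depth limit. *Pdcd1*, which encodes PD-1, had 136 and 111 UMIs (-0.46, -0.84 to -0.09), and *Cd160*, a receptor of effector CD8 cells, 100 and 75 UMIs (-0.58, -1.03 to -0.14). *Ctla4* had 407 and 466 UMIs (0.03, -0.17 to 0.22). Other members were higher in the library labelled PHDTiEC: *Entpd1* had 58 and 85 UMIs and *Cd200* 119 and 200 (0.58), the highest ratio of the list. Of the 8 measured genes of the 11 listed, *Tox* was lower by 2-fold and none higher. Their median was -0.31 (-0.43 over 6 genes within the depth limit). Over 13 alternatives, this median ranged from -0.73 to 0.05. *Lag3*, *Tigit* and *Havcr2*, further receptors of exhausted cells, had too few UMIs to be measured (24 and 14, 7 and 8, and 21 and 17). The *Tox* gene lies on chromosome 4 of GRCm38 from 6686353 to 6991557.

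Interleukin 17 transcripts were lower in the library labelled PHDTiEC. *Il17a* had 531 UMIs in 45 cells of the Cre- library and 218 UMIs in 38 cells of the library labelled PHDTiEC, or 205 and 74.7 CPM, a log2 ratio of -1.45 (-1.69 to -1.22), and -1.17 (-1.44 to -0.90) within the depth limit. The carriers themselves were 11.3% (8.37 to 14.8%) and 8.82% (6.31 to 11.9%) of the T cells, shares whose intervals overlap, so the carriers of the library labelled PHDTiEC held fewer *Il17a* UMIs each. The cell with the most *Il17a* UMIs held 12.8% and 9.17% of them. *Il17f*, its close relative, had 52 and 35 UMIs (-0.74, -1.40 to -0.09). Other genes of the interleukin 17 list lay above 0, with *Rora* at 0.46 (0.24 to 0.68) and *Maf* at 0.24 (0.09 to 0.39), both transcription factors of these cells, and *Ccr6*, their chemokine receptor, at 0.31 (-0.17 to 0.79). The 8 measured of 10 genes had 1 lower by 2-fold, none higher, and a median of 0.37 (0.28 over 6 genes within the depth limit). The *Il17a* gene lies on chromosome 1 of GRCm38 from 20730905 to 20734496.

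Most *Il17a* carriers held alpha-beta receptor transcripts. *Trac* was found in 40 of 45 and 31 of 38 of them and *Trbc2*, a constant gene of the beta chain, in every carrier. *Maf* was found in 35 and 35 carriers, against 43.3% and 49.6% of the other T cells, *Ctla4* in 31 and 30, against 32.3% and 34.9%, and *Ccr6* in 21 and 12, against 6.52% and 10.4%. *Ccl5* was found in 8 and 8 carriers, against 69.1% and 59.8% of the other cells, and *Ifng* in 0 and 1, so hardly any cell held transcripts of both interleukin 17 and interferon gamma. A *Cd4* UMI was found in 12 and 16 carriers and a *Cd8a* UMI in 2 and 2. *Areg* was found in 13 and 12. Genes of gamma-delta T cells that the gate did not use were also found: *Blk*, a kinase seen in 58.4% and 63.7% of gamma-delta T cells, in 7 and 3 carriers, against 0.283% and 2.29% of the other T cells, and *Cd163l1* in 3 and 1. *Trbc2* was also seen in 82.6% and 86.7% and *Trac* in 40.9% and 31.0% of gamma-delta T cells. Gamma-delta T cells held more *Il17a*, at 1319 and 1003 CPM, in 88 of 149 and 132 of 226 cells.

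Other secreted factors followed no single direction. Of the 19 measured among 26 cytokines, chemokines and growth factors made by T cells, 4 were lower by 2-fold (*Il17a*, *Ccl3*, *Ccl4* and *Lta*) and none higher, with a median of -0.15 (-0.22 within the depth limit). *Lta*, which encodes lymphotoxin alpha, had 40 and 21 UMIs (-1.10, -1.93 to -0.30), and within the depth limit, at -1.28, the lowest ratio of this list. *Areg* had 171 and 104 UMIs (-0.89, -1.25 to -0.53) in 33 and 36 cells, with 20.5% and 23.1% of them in 1 cell. *Tnfsf8*, the ligand of CD30, had 185 and 139 UMIs (-0.58, -0.91 to -0.26). *Ifng* had 109 and 159 UMIs (0.38, 0.02 to 0.74), and 0.19 (-0.19 to 0.57) within the depth limit. *Tgfb1* had 240 and 353 UMIs (0.39, 0.15 to 0.63). *Ltb*, the partner of lymphotoxin alpha and among the most abundant of the list, had 515 and 571 CPM (0.15).

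The cytotoxic genes followed no single direction. *Ccl5*, a chemokine that effector and memory CD8 cells store, was the most abundant gene of the list, with 9440 UMIs (3636 CPM) in the Cre- library and 5959 UMIs (2043 CPM) in the library labelled PHDTiEC, a log2 ratio of -0.83 (-0.88 to -0.78). It was found in 252 and 243 cells, and within the depth limit the ratio was -0.89 (-0.94 to -0.84). *Nkg7*, a granule protein, had 1770 and 1467 UMIs (-0.44, -0.54 to -0.34). Gzmb, which encodes granzyme B, had 156 and 248 UMIs (0.50, 0.21 to 0.80) in 48 and 72 cells, and *Klrd1*, which encodes the receptor CD94, 124 and 175 UMIs (0.33, -0.01 to 0.67). *Prf1*, which encodes perforin, had 38 and 37 UMIs, Gzmk, a further granzyme, 187 and 184 (-0.19, -0.49 to 0.11) and *Xcl1*, a chemokine for cross-presenting dendritic cells, 481 and 545 (0.01, -0.17 to 0.19). *Ccl3* and *Ccl4* were lower by 2-fold, but single cells held 44.6% and 35.1% of their UMIs in the Cre- library, and within the depth limit their ratios were -0.19 (-0.68 to 0.30) and -0.41 (-0.66 to -0.17). Of the 16 measured among 18 genes, these 2 were lower by 2-fold and none higher, and the median was -0.02 (-0.03 within the depth limit). The *Ccl5* gene lies on chromosome 11 of GRCm38 from 83525778 to 83530518.

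Receptors for interleukin 18 were higher in the library labelled PHDTiEC. *Il18r1*, the binding chain, had 135 and 264 UMIs in 84 and 137 cells (0.80, 0.50 to 1.11) and *Il18rap*, the signaling chain, 27 and 70 UMIs in 26 and 54 cells (1.21, 0.55 to 1.90), and within the depth limit 1.01 (0.63 to 1.40) and 1.62 (0.83 to 2.49). Macrophages had an *Il18r1* UMI in 2.50% and 2.47% of cells. Both belong to the T helper 1 list, whose other members lay closer to 0: *Tbx21*, the defining factor, had 38 and 46 UMIs (0.11, -0.54 to 0.77), *Cxcr3* a ratio of 0.14 (-0.14 to 0.43) and *Stat4* of 0.24 (-0.02 to 0.51). The 11 measured of 12 genes had 1 higher by 2-fold, none lower, and a median of 0.17 (0.19 within the depth limit).

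T helper 2 and follicular helper genes were scarce. *Il4* had no UMI in either library and *Il5* and *Il13* 0 and 2 each, and 3 of the 9 T helper 2 genes were measured. *Gata3*, the factor of these cells, had 272 UMIs in each library (-0.17, -0.42 to 0.08), but 136 and 98 (-0.72, -1.11 to -0.33) within the depth limit. *Il1rl1* had 38 and 21 UMIs (-1.02, -1.87 to -0.22), the 1 gene of this list lower by 2-fold. The median was -0.17 (-0.37 over 2 genes within the depth limit). Of the 7 follicular helper genes 3 were measured, none 2-fold apart, with a median of -0.38 (-0.10 over 2 genes within the depth limit). *Cxcr5*, their chemokine receptor, had 0 and 1 UMI.

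The regulatory T cell genes had a median near 0. Of 13 measured among 15, 1 was higher by 2-fold and none lower, and the median was 0.01 (-0.11 within the depth limit). The 1 gene was *Lrrc32*, the carrier of latent transforming growth factor beta, with 11 and 48 UMIs. Within the depth limit it had 3 and 13, too few to measure, and *Itgae* was the 1 gene higher by 2-fold (1.31). *Foxp3* itself had 49 and 37 UMIs (-0.57, -1.23 to 0.07), *Il2ra* 37 and 65 (0.65, 0.04 to 1.27) and *Ikzf2* 213 and 298 (0.32, 0.06 to 0.58). *Izumo1r*, the folate receptor 4 of regulatory and anergic T cells, had 125 and 83 UMIs (-0.76, -1.18 to -0.35) in 76 and 55 cells, and *Batf*, a factor of effector and tissue regulatory cells, 111 and 67 (-0.90, -1.36 to -0.45).

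**Figure D3:**
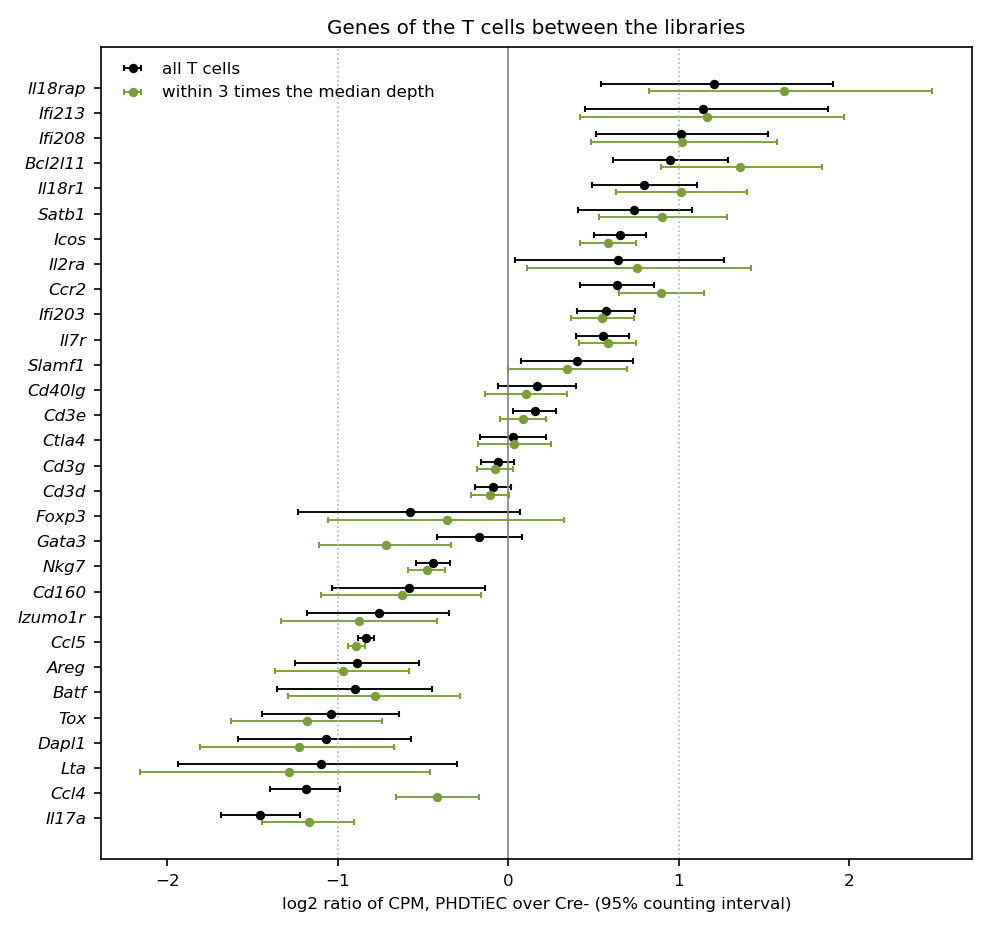
Log2 ratio of CPM (x axis, library labelled PHDTiEC over the Cre- library) of 30 genes, chosen after their values were seen, with 95% counting intervals, for all T cells (black) and for those within 3 times the median depth (green). Dotted lines mark 2-fold. *Icos* (0.66 and 0.59), *Il18r1* (0.80 and 1.01) and *Ccr2* (0.64 and 0.90) lie to the right and *Il17a* (-1.45 and -1.17), *Tox* (-1.04 and -1.18) and *Ccl5* (-0.83 and -0.89) to the left in both sets, while *Ccl4* moves from -1.19 to -0.41.

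Among homing and residence genes, *Ccr2* was higher in the library labelled PHDTiEC. *Ccr2*, a receptor for the monocyte chemokine *Ccl2*, had 275 UMIs in 117 cells of the Cre- library and 481 UMIs in 184 cells of the library labelled PHDTiEC, a log2 ratio of 0.64 (0.42 to 0.86), and 0.90 (0.65 to 1.15) within the depth limit. Since 62.4% and 56.3% of macrophages had a *Ccr2* UMI, RNA of those cells could add to the count, and the part this played was not tested. The summed macrophage and monocyte markers were lower in the T cells of the library labelled PHDTiEC, at 835 against 1294 CPM. Their median per T cell was instead higher in that library, at 5.45 against 4.74 UMIs per 10000. Within the depth limit, this median was 5.17 against 4.77. *Ccr9*, a receptor for homing to gut, had 39 and 16 UMIs (-1.45, -2.39 to -0.58) in 17 and 10 cells. Of the 22 measured among 24 chemokine receptors and homing genes, *Ccr9* was lower by 2-fold and none higher, with a median of 0.13 (0.15 within the depth limit). *Cxcr6*, a receptor of tissue T cells, was found in 57.5% and 62.9% of cells (0.14, -0.02 to 0.30). Of the tissue-resident memory genes, 12 of 13 were measured, *Crtam* was higher by 2-fold (13 and 38 UMIs) and none lower, with a median of 0.10 (0.14). *Itgae*, which encodes the integrin CD103, had 30 and 53 UMIs (0.65, -0.02 to 1.35), and 16 and 47 (1.31, 0.46 to 2.23) within the depth limit.

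Genes of naive and central memory cells were mixed. *Satb1*, a chromatin organizer of the T lineage, had 115 and 216 UMIs in 61 and 121 cells (0.74, 0.41 to 1.08), and *Il7r*, the receptor for the survival cytokine interleukin 7, 547 and 903 UMIs (0.56, 0.40 to 0.71). Within the depth limit, their ratios were 0.90 (0.53 to 1.29) and 0.58 (0.42 to 0.75). *Dapl1*, a gene of memory-like CD8 cells, had 97 and 52 UMIs in 31 and 21 cells (-1.07, -1.58 to -0.57). *Ccr7*, which guides naive cells to lymph nodes, was seen in 39 and 32 cells, with a ratio of -0.27 (-0.78 to 0.23). All 12 genes were measured, *Dapl1* was lower by 2-fold and none higher, and the median was 0.24 (0.19 within the depth limit).

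Interferon-induced genes were mostly higher in the library labelled PHDTiEC, by small amounts. Of 35 measured among 36, 29 had a ratio above 0, against 62.5% of all genes. *Ifi208* and *Ifi213* were higher by 2-fold and none lower, and the median was 0.37, against 0.10 over all genes, and 0.22, against 0.09, within the depth limit. *Gbp4*, a guanylate-binding protein, had 77 and 138 UMIs (0.67, 0.26 to 1.10). *Ifi27l2a*, an abundant member of the list, had 1497 and 1339 UMIs (-0.33, -0.44 to -0.22). *Gbp2* had a ratio of 0.98 (0.63 to 1.34) in all T cells but -0.25 (-0.78 to 0.29) within the depth limit, and 1 cell held 36.5% of its count in the library labelled PHDTiEC.

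Several genes of the Ifi200 family, DNA-binding proteins of the innate response, were among the higher members. *Ifi203* had 457 UMIs in 215 cells of the Cre- library and 765 UMIs in 305 cells of the library labelled PHDTiEC (0.58, 0.41 to 0.75), *Ifi208* 49 and 111 UMIs in 41 and 82 cells (1.01, 0.51 to 1.53), *Ifi209* 69 and 121 UMIs (0.64, 0.20 to 1.09) and *Ifi213* 25 and 62 UMIs (1.14, 0.45 to 1.87). Within the depth limit, the ratios were 0.55, 1.02, 0.70 and 1.17. *Ifi206*, *Ifi214* and *Ifi204* had lower ratios, of 0.45, 0.38 and 0.15. Outside the family, *Gbp2*, *Stat2* (0.91), *Oasl2* (0.89) and *Slfn5* (0.78) lay between them, and within the depth limit the highest ratio was that of *Iigp1*, with 20 and 67 UMIs. The genes of the Ifi200 family are related copies, and reads that fit several of them are uncertain. In gamma-delta T cells of all depths, *Ifi203* had 218 and 188 CPM and *Ifi208* 22.6 and 16.1 CPM. The T cells had 176 and 262 CPM and 18.9 and 38.1 CPM. These values carry no interval, the other genes of the family were not compared, and the contrast was not tested.

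The promoters of 3 of these genes are printed because they show how alike the copies are and where they hold the letters of an interferon-stimulated response element, searched as GAAA, then 2 bases of any kind, then GAAA, on both strands. Each is the 250 bases before a start of the gene, from RefSeq on GRCm38.p6, written 5′ to 3′ on the gene's strand, with the match (GAAATCGAAA in each) in capitals. The windows are chr1:173942493-173942742 on the minus strand for *Ifi203*, chr1:173673415-173673664 on the plus strand for *Ifi208* and chr1:173599273-173599522 on the minus strand for *Ifi213*.
Ifi203: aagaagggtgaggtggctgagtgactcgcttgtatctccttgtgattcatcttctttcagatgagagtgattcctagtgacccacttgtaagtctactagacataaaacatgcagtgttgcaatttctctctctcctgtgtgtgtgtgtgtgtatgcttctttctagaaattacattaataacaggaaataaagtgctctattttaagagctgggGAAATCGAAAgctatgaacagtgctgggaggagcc
Ifi208: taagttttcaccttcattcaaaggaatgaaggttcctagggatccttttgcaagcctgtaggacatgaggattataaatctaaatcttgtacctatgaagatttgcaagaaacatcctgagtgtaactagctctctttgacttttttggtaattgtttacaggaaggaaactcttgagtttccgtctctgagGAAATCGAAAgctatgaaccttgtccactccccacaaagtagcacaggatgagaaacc
Ifi213: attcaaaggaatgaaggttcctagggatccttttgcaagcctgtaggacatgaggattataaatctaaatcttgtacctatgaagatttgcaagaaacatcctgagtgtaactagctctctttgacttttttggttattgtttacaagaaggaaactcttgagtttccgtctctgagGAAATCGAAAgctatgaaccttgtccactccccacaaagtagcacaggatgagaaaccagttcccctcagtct
The match begins 35, 58 and 73 bases before the start that RefSeq gives for the window. For *Ifi203*, RefSeq lists 2 starts, and the window shown belongs to the downstream one, so that it lies in part inside the gene as annotated up to 173942672, while the window of the upstream start holds no match. The longest run of letters shared by *Ifi208* and *Ifi213* is 135 bases, and each shares a run of 20 bases with *Ifi203*, which includes the match. Of all 27025 genes with a promoter in the table, 936 (3.46%) hold the letters, and of the 26 genes of the interferon list with a promoter there, 17 (65.4%). *Ifi209*, with a ratio of 0.64, holds none. A match describes the sequence and is neither a shown binding site nor a cause of the counts.

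Genes of cell survival were near the level of all genes, with the exception of 2 genes that promote cell death. *Bcl2l11*, which encodes BIM, had 108 UMIs in 74 cells of the Cre- library and 234 UMIs in 119 cells of the library labelled PHDTiEC (0.95, 0.61 to 1.29), and 52 and 158 UMIs (1.36, 0.90 to 1.84) within the depth limit. *Bbc3*, which encodes PUMA, had 43 and 78 UMIs (0.69, 0.14 to 1.26). Macrophages had a *Bcl2l11* UMI in 40.9% and 40.3% of cells. *Bcl2*, which opposes both proteins, had 405 and 529 UMIs (0.22, 0.03 to 0.41). All 14 genes were measured, none 2-fold apart in all T cells and *Bcl2l11* higher by 2-fold within the depth limit, with a median of 0.11 in both sets. The interleukin 2 and STAT5 response had a median of 0.16 (0.12) over 12 genes, none 2-fold apart, with *Il2ra* at its top and *Socs3*, a feedback inhibitor, at 0.20 (0.02 to 0.39) in all T cells but -0.73 (-1.16 to -0.30) within the depth limit.

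Metabolic genes differed little apart from those of the mitochondrial genome. The HIF target genes had a median of 0.13 over the 18 measured of 24, and of 0.19 over 10 within the depth limit. Glycolysis and lactate export genes had a median of -0.08 (-0.02) over 13 of 15. No member of either list was 2-fold apart. *Cited2*, which HIF induces and which restrains it, had 370 and 585 UMIs (0.49, 0.30 to 0.68), whereas *Vegfa* had 62 and 110 (0.66, 0.20 to 1.13) in 23 and 38 cells and *Ldha*, the lactate dehydrogenase of glycolytic cells, 377 and 383 CPM. The 17 nuclear genes of the respiratory chain had a median of -0.14 (-0.06), none 2-fold apart. The 13 mitochondrially encoded genes had a median of -0.38 (-0.39), none 2-fold apart, beside the lower mitochondrial share that macrophages of the same library also showed. *Lars2*, the mitochondrial leucyl-tRNA synthetase, had 482 and 298 UMIs (-0.86, -1.07 to -0.65). Immediate early and dissociation stress genes had a median of 0.20 over 21 genes, none 2-fold apart, but of -0.08 within the depth limit, where *Hspa1a*, a heat shock gene, was higher by 2-fold.

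Few gamma-delta transcripts remained. Of 12 further genes of gamma-delta and innate-like T cells, 2 were measured: *Tcrg-C2* had 40 and 40 UMIs (-0.17, -0.84 to 0.50), and *Trgv2*, a variable gene of the gamma chain, 29 and 91 UMIs in 16 and 29 cells (1.48, 0.87 to 2.14). The median of the 2 was 0.66 (0.58 within the depth limit). *Trdv4*, *Trdv1*, *Trdv2-2* and *Trdv5*, variable genes of the delta chain, had 3 and 0, 0 and 0, 0 and 0, and 0 and 0 UMIs. *Trgv2* was the gene with the highest ratio of all that met the rule for naming (at least 100 UMIs over both libraries, in at least 10 cells of the higher library, with at most 10% of its UMIs in 1 cell). The gate did not use it, and whether its carriers are gamma-delta cells whose constant genes were not captured was not tested. Without the members that held markers of other cell types, *Trgv2* alone was still measured, at 1.69.

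Beyond the lists, the same rule named *Nebl* (30 and 81 UMIs, 1.27), *Arhgap31* (33 and 85, 1.20), *Abcb1b* (44 and 110, 1.15), *Nr1d1*, *Kat6b*, *Atp9a*, *Wdr44*, *Arhgef7* and *Atp8a1* among the 12 highest. *Abcb1b* encodes a drug efflux pump and *Nr1d1* a repressor of the circadian clock. Within the depth limit, *Abcb1b* kept a ratio of 1.01 (0.47 to 1.57) and *Nr1d1* had 10 and 15 UMIs, too few to measure. The 12 lowest held *Alox5ap* (145 and 68, -1.26), *Gm11361* (72 and 38, -1.09), *Wdr3* (63 and 38, -0.90), *Dync2li1*, *Chchd6*, *Lars2*, *Mrpl39* and *Rogdi* beside the list genes *Dapl1*, *Tox* and *Ccl5* and the factor *Batf*. *Alox5ap*, which serves leukotriene synthesis and is a gene of many myeloid cells, had 45 and 38 UMIs (-0.49, -1.15 to 0.17) within the depth limit. *Serpinb9*, which protects cytotoxic cells from their own granzyme B, was named within the depth limit, at 80 and 204 UMIs in 55 and 91 cells (1.11).

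**Figure D4:**
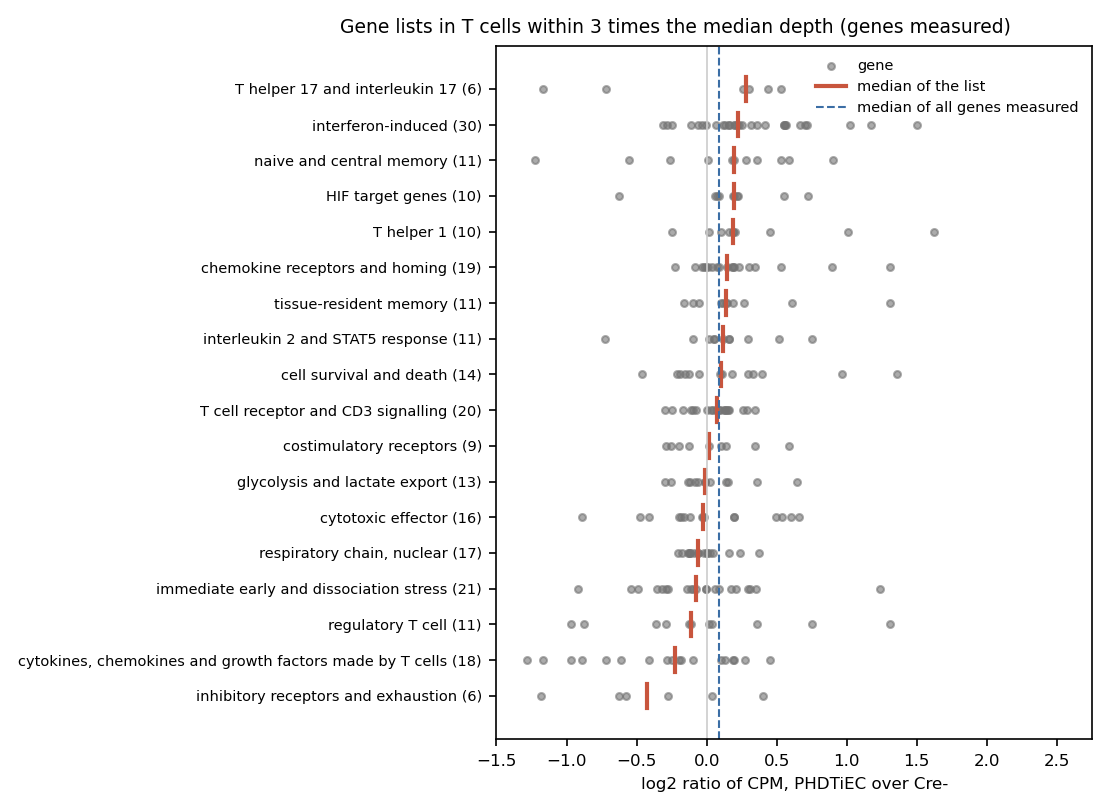
Log2 ratio of CPM (x axis, library labelled PHDTiEC over the Cre- library) of each measured gene (grey points) of 18 gene lists in T cells within 3 times the median depth, with the number of genes measured in parentheses, the median of each list (red bar) and the median of all genes measured (dashed line, 0.09). The medians run from 0.28 for the interleukin 17 list, in spite of *Il17a* at -1.17, to -0.43 for inhibitory receptors.

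The *Cd4*-positive and *Cd8a*-positive cells were then compared within each library, to show how the T cells differ among themselves. Within the depth limit there were 72 and 110 such cells in the Cre- library and 89 and 94 in the library labelled PHDTiEC. Of 3499 genes measured, 11.6% were 2-fold apart among Cre- cells and 9.09% among those of the library labelled PHDTiEC, and 120 (3.43%), the gate genes *Cd4* and *Cd8a* included, were so in both libraries the same way, 38 higher in *Cd8a*-positive and 82 in *Cd4*-positive cells. In all T cells, 188 of 6778 (2.77%) were so. Tubular genes such as *Lcn2* and *Calb1* were among the leading names there, so the values below are from the cells within the depth limit.

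*Cd8a*-positive cells carried the cytotoxic program. *Cd8b1*, the partner chain of CD8, had 3 UMIs in *Cd4*-positive and 391 in *Cd8a*-positive cells of the Cre- library (log2 ratio of *Cd8a*-positive over *Cd4*-positive 6.44) and 10 and 531 in the library labelled PHDTiEC (5.68). *Klrd1* had ratios of 4.35 and 5.20 in the 2 libraries, *Ly6c2*, a surface protein of memory CD8 cells, of 4.08 and 4.66, Gzmb of 3.51 and 4.97, *Ccl4* of 3.48 and 4.33, *Ccl5* of 2.93 and 3.27 and *Nkg7* of 2.62 and 2.97. Of the 13 measured cytotoxic genes, 12 were at least 2-fold higher in *Cd8a*-positive cells in both libraries. *Cd160* had 5 and 49 UMIs in the Cre- library and 0 and 52 in the library labelled PHDTiEC, where the log2 ratio is at least 4.07 against 3 counts.

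*Cd4*-positive cells carried helper and regulatory genes. *Cd40lg* had 79 UMIs in *Cd4*-positive and 12 in *Cd8a*-positive cells of the Cre- library (-3.30) and 136 and 10 in the library labelled PHDTiEC (-3.81). *Tnfrsf4*, the costimulatory receptor OX40, had ratios of -3.17 and -2.87, *Tnfsf8* of -3.07 and -2.35, *Ramp1*, a part of the receptor for the neuropeptide CGRP, of -2.97 and -2.19, and *Maf* of -1.93 and -3.22. *Il17a* had 72 and 0 UMIs in the Cre- library, a log2 ratio of at most -5.17 when set against 3 counts, and 62 and 13 UMIs in the library labelled PHDTiEC (-2.30). All 7 measured regulatory genes, all 3 measured interleukin 17 genes and 5 of 8 costimulatory genes were at least 2-fold higher in *Cd4*-positive cells in both libraries.

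**Figure D5:**
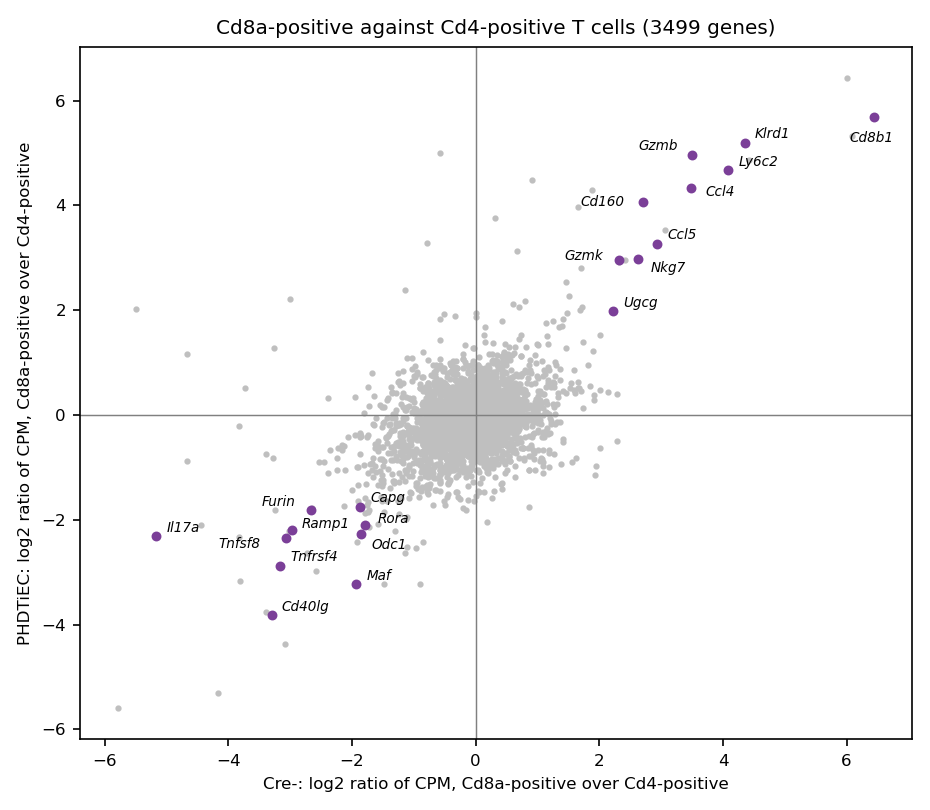
Log2 ratio of CPM of *Cd8a*-positive over *Cd4*-positive T cells in the Cre- library (x axis, 110 and 72 cells) and in the library labelled PHDTiEC (y axis, 94 and 89 cells), 1 point per gene for 3499 genes within the depth limit. The 20 named genes are purple, those with no UMI in 1 subset are drawn at the bound set by 3 counts, and the gate genes *Cd4* and *Cd8a* are among the outermost points. Cytotoxic genes such as Gzmb (3.51 and 4.97) lie at the upper right and helper genes such as *Cd40lg* (-3.30 and -3.81) at the lower left.

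Several ratios between the libraries had different point values in the subsets, although none of these contrasts was tested. The intervals of *Icos* and of *Tox* overlap between *Cd4*-positive and *Cd8a*-positive cells, and those of *Ccr2* do not. *Icos* had 138 and 329 UMIs in *Cd4*-positive cells (0.88, 0.59 to 1.18), 69 and 81 in *Cd8a*-positive cells (0.39, -0.09 to 0.87) and 270 and 427 in cells with neither co-receptor (0.23, 0.01 to 0.46). In *Cd4*-positive cells, that was 43 of 72 and 76 of 89 cells with an *Icos* UMI. With the deep cells included, the *Icos* ratios of the 3 subsets were 1.48, -0.13 and 0.49. *Ccr2* had 41 and 126 UMIs in *Cd8a*-positive cells (1.78, 1.26 to 2.32) and 55 and 97 in *Cd4*-positive cells (0.44, -0.05 to 0.95). *Tox* had 71 UMIs in 41 and 17 UMIs in 13 *Cd8a*-positive cells (-1.91, -2.76 to -1.13). In *Cd4*-positive cells it had 22 and 22 UMIs (-0.37, -1.30 to 0.55), under the minimum of 50. Of 124 genes with at least 50 UMIs in both subsets, 0 had opposite signs with both intervals clear of 0.

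In *Cd8a*-positive cells, *Bcl2l11* had 13 and 51 UMIs (2.13, 1.23 to 3.13), *Serpinb9* 28 and 76 (1.60, 0.96 to 2.28), Gzmb 85 and 162 (1.09, 0.70 to 1.48) and *Itga1*, an integrin of resident CD8 cells, 28 and 69 (1.46, 0.81 to 2.15), whereas *Dapl1* had 42 and 8 (-2.24, -3.54 to -1.13). With the deep cells included, the ratios of *Bcl2l11*, *Ccr2*, *Serpinb9* and Gzmb in *Cd8a*-positive cells were 1.07, 0.86, 1.12 and 0.55, and those of *Tox* and *Dapl1* -2.16 and -2.20. *Ccl5* had 5779 and 2864 UMIs in *Cd8a*-positive cells (-0.86), 508 and 287 in *Cd4*-positive cells (-1.20) and 1775 and 1987 in cells with neither (-0.27). *Il17a* was found mainly in cells with neither co-receptor, with 263 UMIs in 29 cells and 103 UMIs in 20 cells (-1.78, -2.12 to -1.45), and in *Cd4*-positive cells, with 72 UMIs in 8 cells and 62 in 13 (-0.59, -1.10 to -0.08). *Ifi203* had ratios of 0.86 in *Cd4*-positive, 0.47 in *Cd8a*-positive and 0.38 in cells with neither, but of 1.55, -0.00 and 0.49 with the deep cells included.

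Against the cell types most like them, the T cells differed in receptor, cytokine and cytotoxic genes. Set beside gamma-delta T cells, of 274 measured genes of the lists 29 were at least 2-fold higher and 23 at least 2-fold lower in T cells in both libraries, where 1.52% and 1.45% of all 10056 genes were. *Cd28* had 181 and 203 CPM in T cells and 54.5 and 49.7 CPM in gamma-delta T cells, *Cd40lg* 109 and 123 against 53.2 and 48.2 CPM, and *Ccl5* 3636 and 2043 against 999.8 and 468 CPM. *Cd163l1*, a scavenger receptor of gamma-delta cells, had 1.16 and 0.686 CPM in T cells against 193 and 184 CPM. *Il18r1* had 52.0 and 90.5 CPM against 181 and 170 CPM, and *Rora* 108 and 149 against 363 and 336 CPM. *Icos* had 540 and 457 CPM in gamma-delta cells. Whether its difference between the libraries differs between these cell types was not tested. All these CPM cover cells of every depth. In T cells within the depth limit, *Il18r1* had 64.5 and 130 CPM and *Ccl5* 6597 and 3557 CPM. The T cell markers summed to 8038 and 8019 CPM there, against 4516 and 4624 CPM in all T cells. How far the deep barcodes shape these contrasts was not tested. Without the cells over 3 times the median depth, 47 of 252 measured list genes were higher and 22 lower. The share over all genes was not counted at that limit.

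Set beside natural killer cells, of 263 measured list genes 48 were at least 2-fold higher and 24 lower in T cells in both libraries, where 3.24% and 1.81% of all 9340 genes were. Without the cells over 3 times the median depth, 46 of 236 measured list genes were higher and 28 lower, again with no share over all genes counted. Gzma, which encodes granzyme A, had 65.5 and 87.1 CPM in T cells, in 14 and 19 cells, against 3671 and 4668 CPM in natural killer cells, and *Klrd1* 47.8 and 60.0 against 478 and 897 CPM. *Icos* had 210 and 331 against 16.2 and 43.4 CPM, and these natural killer values rest on 4 and 9 UMIs. *Cd5*, a T cell surface protein that dampens receptor signals, and *Cd40lg* had no UMI in either library's natural killer cells. *Ccl5* had 6897 and 7441 CPM in natural killer cells. The Cre- natural killer cells numbered 40 and held 247068 UMIs, of which 81480 came from the deepest barcode. Those labelled PHDTiEC numbered 50 and held 207375 UMIs, with 21468 in the deepest barcode. How far the deepest Cre- barcode shapes the natural killer CPM was not tested. The gates of both comparison classes used CD3 or receptor genes, so those genes are no finding here. *Cd3d*, *Cd3e*, *Cd3g* and *Klrb1c*, which the natural killer gate used, belong to the lists and were not left out of the counts against natural killer cells.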

How the data were processed

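Single-cell suspensions of injured kidneys were profiled with 10X Chromium 3′ chemistry in 1 library per genotype. The authors aligned the reads to mm10 and deposited unfiltered matrices of raw UMI counts made with Cell Ranger (matrix header version 4). The labels mention a cell hashing library, which was not used here. Barcodes, T cells and subsets were chosen by the limits given above. No doublet caller was run, and alternatives left out barcodes over 3 times the median UMIs or with 20 or more UMIs per 10000 of other cell types' markers. UMIs were summed per library and compared as CPM over genes with at least 50 UMIs, with exact binomial intervals for ratios and Clopper-Pearson intervals for shares. A gene with no UMI in 1 group was set against 3 counts. Thinning gave the expected share of cells at 1000 UMIs each.

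With 1 library per genotype, no test between genotypes was possible. The members and gene lists were chosen with earlier results of these data known. Genes outside the lists were named by a rule: the 12 highest and 12 lowest ratios among genes with at least 100 UMIs, seen in at least 10 cells of the higher library with at most 10% of its UMIs in 1 cell, leaving out mitochondrial, ribosomal, hemoglobin, Y-linked and other cell types' marker genes, and for co-receptor subsets the 10 highest and 10 lowest in both libraries. Its use within the depth limit, and *Batf*, *Serpinb9* and the genes plotted, were chosen after the values were seen. Alternatives were TMM scaling (edgeR 4.0.16, R 4.3.3), other gates, filters and thinning, and subtraction of the profile of barcodes under 100 UMIs. Python 3.11.15, numpy 2.4.6, scipy 1.17.1, pandas 2.3.3 and matplotlib 3.10.9 were used, and the scripts were tested on simulated data. Some genes of the lists are counted in them but are not reported here by name.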

Additional observations from a re-analysis of the deposited data

Results flagged for a closer look

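Cycling cells were left out of the T cells by the limit on *Mki67* and *Top2a*, 2 genes of dividing cells, and they stand outside the comparisons above. Barcodes that met every other condition but held 4 or more UMIs of these genes numbered 22 of 420 (5.24%, 3.31 to 7.82%) in the Cre- library and 42 of 473 (8.88%, 6.47 to 11.8%) in the library labelled PHDTiEC, a ratio of the shares of 1.70 (0.989 to 2.98) whose interval includes 1. Of the cycling cells, 3 and 14 held *Cd4* alone, 9 and 18 *Cd8a* alone, 4 and 2 both and 6 and 8 neither. *Icos* was found in 15 and 26 of them, Gzmb in 6 and 16, *Foxp3* in 3 and 4 and *Il17a* in 6 and 0. They were deeper than the other T cells, at a median of 12859.5 and 11259 UMIs, and their CD3 genes had a median of 14.9 and 21.7 UMIs per 10000, against 24.6 and 23.8 in the T cells kept. Markers of other cell types at 20 or more UMIs per 10000 were found in 9 and 5 of them. The difference in share was not tested.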

How the results depend on the processing

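No paired analysis was possible because each genotype has 1 library, and for the same reason no library could be left out. The 283 genes at least 2-fold apart numbered 1577 after subtraction of the ambient profile, 731 with a minimum of 20 UMIs, 553 as a mean over cells, 89 without the deep cells, 77 without cells holding other cell types' markers and 86 without both kinds. The 188 genes apart between co-receptor subsets numbered 120 without the deep cells. The ratio of T cell shares of 0.993 was 1.30 without cells holding other markers.

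Among list medians, T helper 2 was -0.59 with a minimum of 20 UMIs and -0.56 as a mean over cells, against -0.17. The stress list, at 0.20, was 0.35 after ambient subtraction, 0.0705 as a mean over cells, -0.0754 without the deep cells, 0.00198 without cells holding other markers and -0.0102 without both. The remaining gamma-delta list, at 0.66 over 2 genes, was 1.69 without cells holding other markers and 1.65 without both kinds because *Trgv2* alone was still measured, and the nuclear respiratory list, at -0.14, was 0.00598 without both. *Alox5ap*, at -1.26, was 0.0758 without cells holding other markers and 0.0370 without both kinds, and *Ccl4*, at -1.19, was 0.0370 and 0.0460, and -4.15 after ambient subtraction. With TMM scaling, list medians near 0 lay on the other side of it, at -0.04 for T cell receptor signalling, -0.10 for costimulatory and for regulatory genes and -0.01 for tissue-resident memory. The cause of the other shifts was not tested.

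Of 549 values of 46 genes under alternatives, 498 lay within the counting interval of the value reported, 47 moved beyond it and 4, those of *Alox5ap* and *Ccl4*, turned the sign of a gene at least 2-fold apart. *Ctla4*, at 0.03, lay on the other side of 0 in 6 of 12 alternatives. *Icos* ranged from 0.55 to 0.67, *Il17a* from -1.63 to -1.01, *Ccl5* from -0.99 to -0.83, *Tox* from -1.29 to -0.92, *Ccr2* from 0.49 to 1.23 and *Ifi208* from 0.90 to 1.18, whereas *Iigp1* ranged from 0.21 to 2.04 and *Areg* from -2.15 to -0.87. The limits are 1 library per genotype, barcodes with RNA of other cells, and few UMIs per cell, so that a gene not seen in a cell is not shown to be absent.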

Other observations

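*Areg* was found in 33 cells of the Cre- library and 36 of the library labelled PHDTiEC. Of these, 25 and 30 held *Maf*, against 44.7% and 50.6% of the other T cells, 23 and 27 *Ctla4*, 13 and 12 *Il17a*, 8 and 9 *Foxp3* and 6 and 8 *Il1rl1*, while *Nkg7*, seen in 61.1% and 55.9% of the other cells, was found in 5 and 5. *Cd8a* was found in 2 and 0 of the *Areg* carriers and *Ifng* in 0 and 2. The *Areg* carriers were deeper, at a median of 5001 and 4480 UMIs, against 3232 and 3581 in the other T cells.

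Gzmb was found in 48 and 72 cells, of which 47 and 68 held *Ccl5*, 45 and 66 *Nkg7*, 27 and 45 *Cd8a* and 11 and 21 *Ifng*. Among the Gzmb carriers, *Ctla4* was found in 20 and 19, or 41.7% and 26.4%, and *Ikzf2*, the Helios gene, in 14 and 10, or 29.2% and 13.9%. *Ifng* was found in 62 and 67 cells, of which 24 and 27 held *Cd8a* and 16 and 20 held *Cd4*. All these carriers are counted over all T cells, a gene not captured in a cell lowers each count, and the genes described were chosen after their values were seen.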
